A study of Gallus gallus with 12 samples.

Results

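The comparison is between pineal glands kept in darkness at circadian time (CT) 14, early in the subjective night, and at CT6, in the subjective day. Its members were chosen by their labels and are the 2 CT14 dark arrays and the 2 CT6 dark arrays, 4 of the 12 arrays in the series, with every probe set of the array that is not a control. All birds were male chicks aged 8 days, which had 7 days of a cycle with 12 h of light and then spent a day in constant darkness. CT14 dark birds and CT6 dark birds received no light pulse, while other birds of the same circadian time received a 1 h light pulse, at the end of which glands were collected. The CT14 light, CT6 light, CT22 light and CT22 dark groups, also of 2 arrays each, served to estimate the spread and for the comparisons named below. Each array was hybridised with biotin-labelled RNA of 6 glands, so a value is a mean over pooled glands and differences between birds cannot be seen. CT is counted from the start of the subjective day, so the 2 groups lie on either side of what had been lights-off. Birds taken later in the day had also spent longer in constant darkness, so circadian time and time in darkness cannot be told apart.

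The chick pineal gland contains its own circadian clock, its own photoreceptors and the enzymes that make melatonin, the hormone of the night. In the clock, CLOCK or NPAS2 pairs with a BMAL protein and activates genes with E-box sequences, among them the PER, CRY and BHLHE40 family genes, whose products repress that activation. A second loop runs through nuclear receptors of the ROR and REV-ERB families, which act on the BMAL genes, and another through factors such as NFIL3 and the PAR bZIP factors, which act on output genes. Melatonin is made from tryptophan through TPH1, DDC, AANAT and ASMT, and AANAT is the step that rises at night. Glands are bulk tissue, so fewer cells of a type and less RNA per cell cannot be told apart in any value below.

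Values are log2 normalized intensities, and a difference is CT14 dark minus CT6 dark on that scale, given with its standard error (SE) from limma and with a p adjusted after Benjamini and Hochberg. Probe sets were tested where their mean over all arrays lay above a log2 limit of 3.73, and a group mean near or under that limit makes the size of a change uncertain. The lists of clock, melatonin and other genes were drawn up with earlier results of these data known. The labelled tissue was checked against markers of pinealocytes, of which 9 of 12 listed genes were tested, among them AANAT, ASMT, OPNP and TPH1, and TPH1 ranked 11 or closer to the top among all probe sets on every array. The CT14 dark arrays correlated with each other with r = 0.964 across probe sets, the lowest of the 6 replicate pairs, and the CT6 dark arrays with r = 0.971. Across the 2 times r lay between 0.955 and 0.964. RNA quality was read from the 3-prime over 5-prime ratio of the actin control probes. It was 4.67 and 3.95 in the CT14 dark arrays, against 3.89 and 4.17 in the CT6 dark arrays, so the groups overlapped. The 4.67 of the first CT14 dark array was the highest of the 12 arrays. The median deposited intensity of that array, 20.1, was the lowest of the 12. The matching GAPDH ratio was 1.31 and 1.30 at CT14, against 1.26 and 1.25 at CT6, so it was higher in both CT14 arrays. Its part in the results was not tested.

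Early in the subjective night the dark gland had lower PER2, PER3 and BHLHE41 than in the subjective day, and higher ARNTL, ARNTL2, NFIL3 and AANAT. The increases were led by G0S2, an inhibitor of lipolysis, at 8.87-fold, and among well measured genes they included the G-protein subunit gene GNB3 at 4.0-fold. In all, 802 of 23063 probe sets tested passed an adjusted p of 0.05, which is 3.48%, with 308 higher (1.34%) and 494 lower (2.14%) at CT14. Taking 1 probe set per gene, 456 of 10406 genes passed (4.38%), 207 higher (1.99%) and 249 lower (2.39%). Of the 802 probe sets, 149 differed by a log2 value of 1 or more, 59 of them higher and 90 lower, and the median size of the difference was 0.64, against 0.20 over all probe sets tested. Of the 802, 165 carry no single gene name here. The share of calls that were higher depended on how arrays were scaled: with arrays centred on their median 578 probe sets were higher and 337 lower, and with the values as deposited 111 were higher and 310 lower.

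The number of calls also depended on the model of the spread and on single arrays. A fit without the variance trend gave 143 calls, and the 4 arrays alone gave 359. Without the first CT6 dark array 261 probe sets passed, and without the first CT14 dark array 343. Of the 86 calls among genes named by the rule for naming genes, 23 passed under all 14 alternatives: G0S2, GNB3, FAM19A1, SH3GLB2, MCF2L2, LBH, NFIL3, ARNTL2 and LHX3 among the increases, and PER2, BHLHE41, RASL11A, MDGA1, RDH8L, CRYAB, VOPP1, SLC4A7, GAMT, PDE10A, CNGB3, CPLX4, FN1 and COL1A1 among the decreases. No call among the 86 changed direction under these 14 alternatives, but most of them could not alter a direction.

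**Figure D1:**
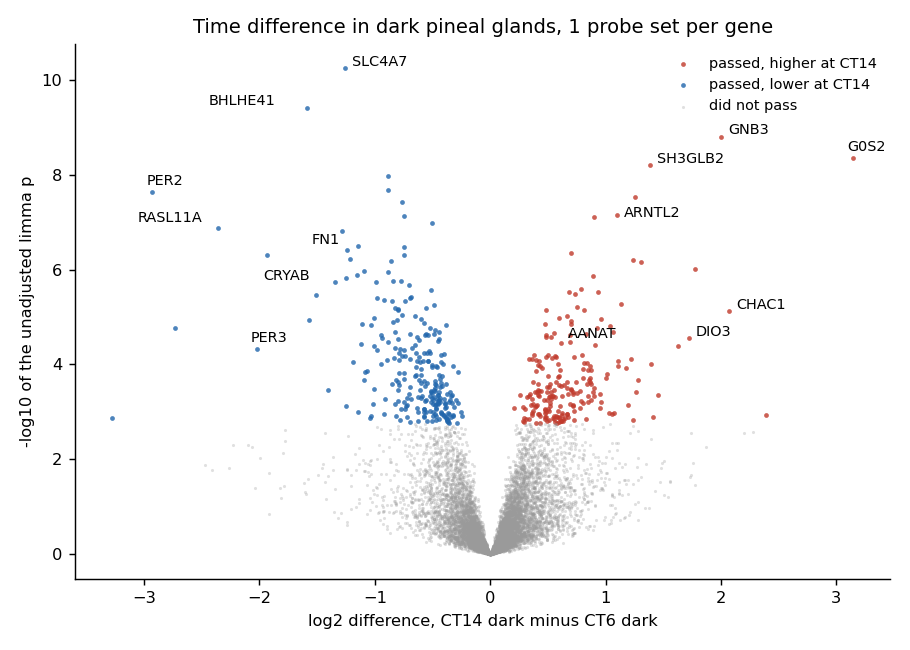
Each point is 1 of 10406 genes, with its log2 difference (CT14 dark minus CT6 dark, 2 arrays each) on the x axis and -log10 of the unadjusted limma p on the y axis. Red points are the 207 genes that passed the adjusted threshold and were higher at CT14, blue points the 249 that were lower, and grey points the rest. G0S2 lies farthest to the right, and PER2, PER3 and BHLHE41 lie to the left.

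Among 9 tested clock repressors, 4 fell and 1 rose at CT14 (median -0.48, against a median of 0.0287 over all genes tested), where 4.38% of all genes passed. The calls in every list below stand beside that same share. PER2, which encodes a core repressor of the clock, read 3.61 and 4.50 in the CT14 dark arrays, against 6.96 and 7.01 in the CT6 dark arrays. Both CT14 arrays were lower than both CT6 arrays, a difference of -2.93 ± 0.25 (adjusted p = 4.13e-05), or 7.61-fold lower at CT14. The CT14 values lie close to the log2 limit, and with 16 added before log2 the difference was -2.11. Further probe sets of PER2 gave -1.19 and -1.99, which passed, and -0.73, which did not. Arrays of the 2 times did not overlap in 48.3% of all genes tested and in all 456 genes that passed. That share stands behind each statement here that both CT14 arrays lay on 1 side.

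PER3, a related gene of the same family, read 3.40 and 4.99 at CT14, against 6.26 and 6.17 at CT6. The CT14 pair differed widely from each other, yet both were lower than the CT6 pair, a difference of -2.02 ± 0.34 (adjusted p = 0.00569). Without the first CT14 array the difference was -1.23, without the second it was -2.82, and without the first CT6 array the call was lost at -1.98. Further probe sets of PER3 disagreed on the size, with -0.37 (adjusted p = 0.362), which did not pass, and -3.86 (adjusted p = 0.0120), which passed with a CT14 mean of 1.66, under the limit. BHLHE41 and BHLHE40 encode repressors that compete for E-boxes. BHLHE41 read 7.37 and 7.16 at CT14, against 8.84 and 8.87 at CT6, and fell by 1.59 ± 0.098 (adjusted p = 2.81e-06), or 3.01-fold. BHLHE40 fell by 0.80 ± 0.17 (adjusted p = 0.0191), with 5.97 and 5.85 at CT14, against 7.00 and 6.42 at CT6. Further probe sets of BHLHE40 gave -0.64 and -0.69, and neither passed. Its call was the less secure: it was lost without the first or second CT14 array (-0.86 and -0.74) and without the first CT6 array (-0.51).

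The cryptochromes did not pass. CRY1 read 9.55 and 9.83 at CT14, against 9.83 and 9.86 at CT6, a difference of -0.15 ± 0.091 (adjusted p = 0.438), and CRY2 differed by -0.26 ± 0.089 (adjusted p = 0.148). LOC395100, which the reference lists with the synonym CRY4, gave -0.48 ± 0.22 (adjusted p = 0.296). NR1D2, a REV-ERB receptor gene, gave 0.33 ± 0.10 (adjusted p = 0.111), and a further probe set of it passed with 0.53. NFIL3 ran against its list: it rose by 0.89 ± 0.11 (adjusted p = 5.87e-04), with 8.24 and 7.96 at CT14, against 7.22 and 7.20 at CT6.

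Of 8 tested genes of clock activators and output factors, 2 rose and none fell (median 0.24). Both were BMAL genes, whose products are the partners of CLOCK. ARNTL2 (BMAL2) read 9.10 and 9.15 at CT14, against 8.13 and 7.92 at CT6, and rose by 1.10 ± 0.10 (adjusted p = 8.27e-05), a 2.14-fold change. ARNTL (BMAL1) read 7.17 and 6.89 at CT14, against 6.17 and 6.15 at CT6, and rose by 0.87 ± 0.17 (adjusted p = 0.0136). Further probe sets of ARNTL gave smaller rises of 0.57 and 0.43, and neither passed. The ARNTL call was lost without the first CT14 array (0.73) and without either CT6 array (0.88 and 0.86), each time with little change in the value. NPAS2 gave 0.85 ± 0.35 (adjusted p = 0.225) from low levels, with 4.76 and 4.68 at CT14, against 3.79 and 3.96 at CT6. The arrays of NPAS2 did not overlap, which was true of 48.3% of all genes tested.

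CLOCK, by contrast, differed by 0.13 ± 0.14 (adjusted p = 0.702), and RORA, RORB, TEF and HLF by between -0.14 and 0.36, none of which passed. Among 7 tested clock modifiers 1 passed: FBXL21, the gene of an F-box protein that acts on cryptochromes, rose by 0.59 ± 0.11 (adjusted p = 0.00867), a call lost without the second CT14 array (0.45) and without the first CT6 array (0.51).

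The CT22 dark arrays, late in the subjective night, place these 2 times in the cycle. Contrasts with CT22 share the CT14 or CT6 arrays with the comparison above, so their values stand beside it as levels. PER2 averaged 6.98 at CT6, 4.05 at CT14 and 6.76 at CT22. PER3 averaged 6.22, 4.19 and 7.82 at the same times, and BHLHE41 8.85, 7.26 and 10.29. All 3 genes were at their lowest at CT14 and higher again at CT22. The same CT14 arrays gave their calls above, so the higher CT22 level is not separate support. Between CT22 and CT14 in the dark 6.53% of all probe sets passed. ARNTL was highest at CT14, with 6.16, 7.03 and 5.13 at CT6, CT14 and CT22. CRY1 stood at 9.84 at CT6 and 9.69 at CT14 and reached 8.70 at CT22 (CT22 minus CT14 adjusted p = 2.56e-05), so it was lower at CT22 than at CT14.

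**Figure D2:**
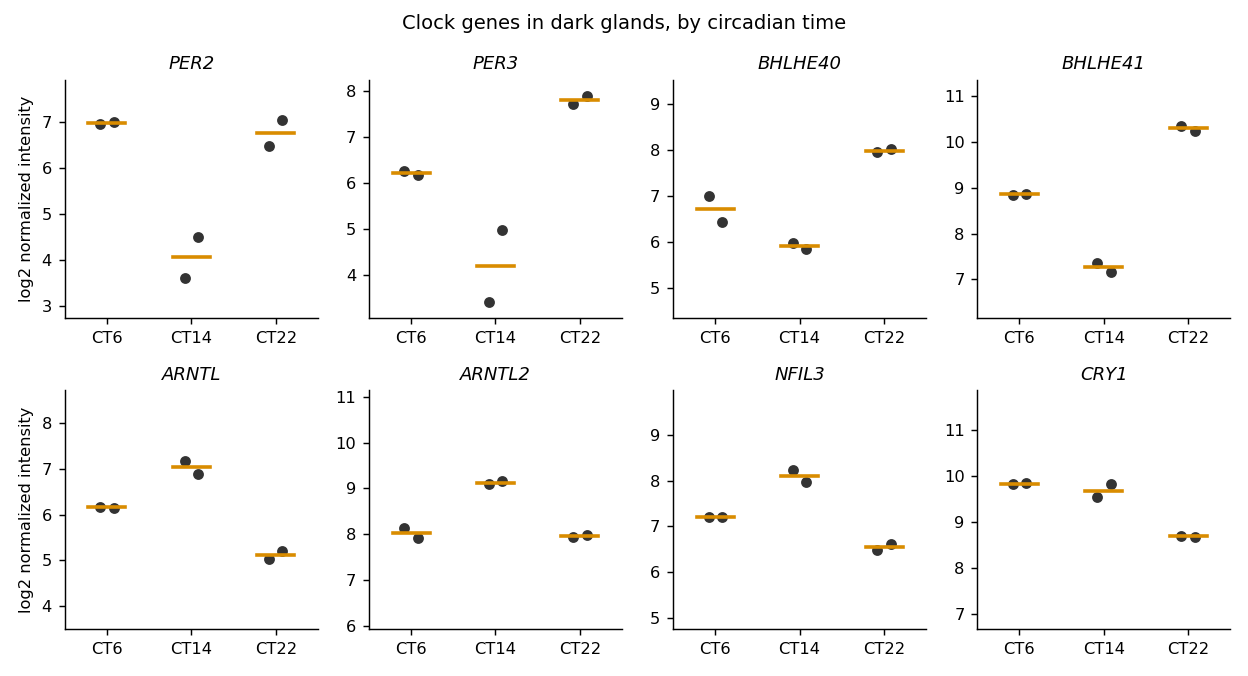
Log2 normalized intensity of 8 clock genes in the dark arrays at CT6, CT14 and CT22, with a point per array and a bar at the mean of 2 arrays. Every panel spans the same number of log2 units. PER2, PER3, BHLHE40 and BHLHE41 are lowest at CT14, ARNTL, ARNTL2 and NFIL3 are highest there, and CRY1 differs little between CT14 and CT6.

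In the melatonin pathway the enzymes did not move together: of 11 tested genes 2 rose and 2 fell (median -0.025). AANAT, the enzyme whose activity sets the melatonin rhythm, read 9.22 and 9.52 at CT14, against 8.78 and 8.74 at CT6. It rose by 0.61 ± 0.10 (adjusted p = 0.00469), a 1.53-fold change, and averaged 10.15 at CT22 in the dark. GCH1, which makes the cofactor of tryptophan hydroxylase, rose by 0.43 ± 0.080 (adjusted p = 0.00901), a call lost without the second CT14 array (0.34) and without the second CT6 array (0.39). ASMT, the enzyme of the last step, read 12.54 and 12.52 at CT14, against 12.85 and 12.85 at CT6, and fell by 0.32 ± 0.059 (adjusted p = 0.00901).

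The 2 CT6 values of ASMT were the same after quantile normalization, which gives equal ranks equal values. Their agreement therefore says little on the spread. The ASMT call depended on the scaling. With arrays centred on their median the difference was -0.14, with the values as deposited -0.26, and the call was also lost without the first CT14 array (-0.33) or the first CT6 array (-0.32). MAT2B, a subunit of the enzyme that makes the methyl donor of ASMT, fell by 0.37 ± 0.088 (adjusted p = 0.0374) but passed in only 4 of 14 alternatives, with values from -0.41 to -0.26. It was lost with each of the 4 arrays left out.

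DDC, the decarboxylase, gave 0.41 ± 0.12 (adjusted p = 0.0770) and did not pass. Its CT14 arrays, at 9.11 and 9.23, lay above its CT6 arrays, at 8.89 and 8.63. Arrays did not overlap in 48.3% of all genes tested. TPH1, the first enzyme, differed by -0.025 ± 0.055 (adjusted p = 0.869). Its probe set ranked 3 and 2 from the top among all probe sets on the CT14 dark arrays, against 2 and 2 on the CT6 dark arrays. Values so near the top have little room to differ after quantile normalization. As deposited, TPH1 read 8894 and 9552 at CT14, against 9103 and 9696 at CT6. PTS, SPR, QDPR, PCBD1 and AHCY, which serve the cofactors and the methyl cycle, gave between -0.18 and 0.14, and none passed.

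Photoreceptor genes split as well, with 1 of 30 tested genes higher and 6 lower at CT14 (median 0.034, 23.3% called). GNB3, the beta subunit of the G protein of cones and pinealocytes, read 9.52 and 9.80 at CT14, against 7.66 and 7.65 at CT6. Both CT14 arrays were far above both CT6 arrays, a rise of 2.00 ± 0.14 (adjusted p = 7.32e-06), and a further probe set rose by 2.29. The gene for pinopsin, the photopigment of the bird pineal, did the reverse: OPNP read 10.01 and 10.20 at CT14, against 10.66 and 10.63 at CT6, and fell by 0.54 ± 0.086 (adjusted p = 0.00361). CNGB3, a subunit of the cone cyclic nucleotide-gated channel, fell by 0.98 ± 0.13 (adjusted p = 0.00119). RPE65, the isomerase of the retinoid cycle, fell by 0.77 ± 0.095 (adjusted p = 6.78e-04), with 10.22 and 10.52 at CT14, against 11.18 and 11.10 at CT6.

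RBP3, a retinoid carrier, fell by 1.07 ± 0.20 (adjusted p = 0.0109), with 6.23 and 6.08 at CT14, against 7.63 and 6.82 at CT6, and the exchanger gene SLC24A2 by 0.50 ± 0.11. The RBP3 call was lost without the second CT14 array (-1.0) and without the first CT6 array (-0.67), and that of SLC24A2 without the first CT14 array (-0.43) or the first CT6 array (-0.41). Among 12 tested regulators of pineal and photoreceptor identity, LHX3, a LIM homeobox gene, rose by 1.04 ± 0.16 (adjusted p = 0.00275). SIX3 rose by 1.19 ± 0.27 and ISL1 fell by 0.34 ± 0.085, but SIX3 lost its call in 10 of 13 alternatives that tested it (0.73 to 1.26) and ISL1 in 10 of 14 (-0.49 to -0.17).

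The 15 leading increases included GNB3, described above, and DIO3, described with the thyroid hormone genes. G0S2 read 9.40 and 9.66 at CT14, against 6.86 and 5.90 at CT6, a rise of 3.15 ± 0.24 (adjusted p = 1.73e-05). At CT22 in the dark it averaged 5.72, so among dark glands it was high at CT14. CHAC1, an enzyme that degrades glutathione, rose by 2.07 ± 0.29 (adjusted p = 0.00176), with 7.67 and 8.24 at CT14, against 5.91 and 5.86 at CT6. CHAC1 was the 1 of 18 tested ATF4 targets to pass (5.56%, near the 4.38% of all genes). FAM19A1, a secreted neuropeptide-like protein gene, rose by 1.77 ± 0.21, SLC6A9, a glycine transporter, by 1.63 ± 0.27 and SH3GLB2, an endophilin, by 1.39 ± 0.11 (adjusted p = 2.00e-05).

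SH3GLB2 was tight within its groups, with 9.50 and 9.63 at CT14, against 8.18 and 8.16 at CT6. MCF2L2, a guanine exchange factor gene, rose by 1.31 ± 0.15 and LBH, a transcription cofactor gene, by 1.26 ± 0.11. RPH3A, POF1B, SCNN1A, SETD4, NPTX2 and TMEM27 rose by between 1.27 and 2.39, and each lost its call without at least 2 of the 4 arrays. RPH3A, a synaptic vesicle gene, had a CT6 mean of 2.87, under the limit, and gave 3.25 without the first CT6 array and 1.52 without the second. SCNN1A gave 0.88 and TMEM27 0.74 without the first CT6 array. POF1B gave 1.09 without the second CT14 array and SETD4 1.07 without the first. A further probe set of POF1B gave -0.15 and one of SCNN1A gave 0.080, and neither passed.

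The 15 leading decreases began with SEMA3F, a secreted guidance protein gene, at -3.28 ± 0.81 (adjusted p = 0.0421). Its CT14 arrays read 2.54 and 1.89, under the limit, against 5.28 and 5.70 at CT6, and the call was lost with any 1 of the 4 arrays left out, with values from -3.60 to -2.95. RASL11A, a small GTPase gene, fell by 2.36 ± 0.23 (adjusted p = 1.23e-04), and its CT14 arrays, at 3.56 and 3.03, were also under the limit, against 5.60 and 5.70 at CT6. CRYBA1, a lens crystallin gene, fell by 2.73 ± 0.42, with -3.58 and -1.88 when the first or second CT14 array was left out. Its CT14 arrays, at 3.64 and 1.94, had a mean under the limit, against 5.74 and 5.30 at CT6, and with 16 added before log2 the difference was -1.39. Better measured was MDGA1, a cell adhesion gene, with 4.78 and 4.84 at CT14, against 6.96 and 6.53 at CT6, a fall of 1.94 ± 0.21 (adjusted p = 2.94e-04).

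SLC4A7, a sodium bicarbonate cotransporter gene, had the smallest error of the 30 leading genes. It read 9.06 and 8.97 at CT14, against 10.23 and 10.31 at CT6, and fell by 1.26 ± 0.067 (adjusted p = 6.69e-07). CRYAB, a small heat shock protein gene, fell by 1.34 ± 0.17 (adjusted p = 6.78e-04), with 8.30 and 9.0 at CT14, against 9.90 and 10.09 at CT6. It was the 1 of 34 tested cytosolic heat shock genes to pass (2.94%, under the 4.38% of all genes). ACHE, the gene of acetylcholinesterase, fell by 1.57 ± 0.23, RDH8L, a retinol dehydrogenase-like gene, by 1.51 ± 0.20, VOPP1 by 1.29 ± 0.13 and GAMT, an enzyme of creatine synthesis, by 1.25 ± 0.15. A further probe set of ACHE gave -0.059 and did not pass. CHGB, a granin of secretory granules, fell by 1.41 ± 0.29 and VPS26B, a retromer subunit, by 1.25 ± 0.29. Both calls were lost without the first CT14 array (-0.94 for CHGB and -1.11 for VPS26B) and without either CT6 array, and that of VPS26B also without the second CT14 array.

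In the thyroid hormone list 3 of 9 tested genes rose at CT14 (33.3%, against 4.38% of all genes). None was called lower, and the list median was 0.029. DIO3, the deiodinase that inactivates thyroid hormone, read 8.38 and 7.84 at CT14, against 6.18 and 6.59 at CT6, a rise of 1.72 ± 0.28 (adjusted p = 0.00398). SLCO1C1, a thyroxine transporter, read 9.97 and 10.11 at CT14, against 8.60 and 9.22 at CT6, and rose by 1.13 ± 0.16 (adjusted p = 0.00149). DIO2, which activates the hormone, rose too, by 0.73 ± 0.096 (adjusted p = 0.00105), so the enzymes with opposite actions moved the same way. The DIO3 call was lost without the first CT14 array (1.45) or the first CT6 array (1.52), and a further probe set of DIO2, at low levels, gave -0.57 and did not pass.

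In the list for making and taking up sterols, 4 of 23 tested genes rose and no gene fell (17.4%, against 4.38% of all genes). In that list 19 lay higher, where 5670 of all 10406 genes tested did, and the median was 0.16. MSMO1, which removes methyl groups from sterol precursors, read 11.18 and 10.98 at CT14, against 10.34 and 10.23 at CT6, and rose by 0.79 ± 0.10 (adjusted p = 9.11e-04). STARD4, a sterol carrier, rose by 0.50 ± 0.10, though a further probe set of it gave 0.19 and did not pass. FDFT1, the squalene synthase, rose by 0.47 ± 0.10 and HMGCS1, an early enzyme, by 0.42 ± 0.089. Those 3 calls were lost without the first CT14 array (0.41, 0.44 and 0.31) and without either CT6 array (0.47, 0.49 and 0.39 without the first), and that of FDFT1 also without the second CT14 array. None of 15 fatty acid synthesis genes passed in the limma fit, although without adjustment 4 higher and 1 lower had p under 0.05. Of all 23063 probe sets tested, 3933 had such a p without adjustment, a count of probe sets and not of genes.

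Glycolysis, pyruvate and hypoxia genes gave 4 increases and 3 decreases among 38 tested (18.4%, against 4.38% of all genes, median 0.13). PDK4, a kinase that shuts pyruvate dehydrogenase, rose by 0.69 ± 0.11 (adjusted p = 0.00446), with 11.22 and 11.27 at CT14, against 10.67 and 10.44 at CT6. LDHA, NDRG1 and SLC2A1, the genes of lactate dehydrogenase A, a hypoxia-linked protein and a glucose transporter, rose by between 0.36 and 0.48. ALDOC, an aldolase, fell by 0.51 ± 0.066 (adjusted p = 9.47e-04), HK1, a hexokinase, by 0.54 ± 0.097 and GAPDH, named here after its value was seen, by 0.28. Further probe sets of HK1 gave -0.30 and -0.25, and neither passed. The calls of LDHA, NDRG1 and SLC2A1 were lost without the second CT6 array (0.40, 0.27 and 0.27) and without at least 1 CT14 array, and that of HK1 without the first CT14 or first CT6 array (-0.48 and -0.51).

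**Figure D3:**
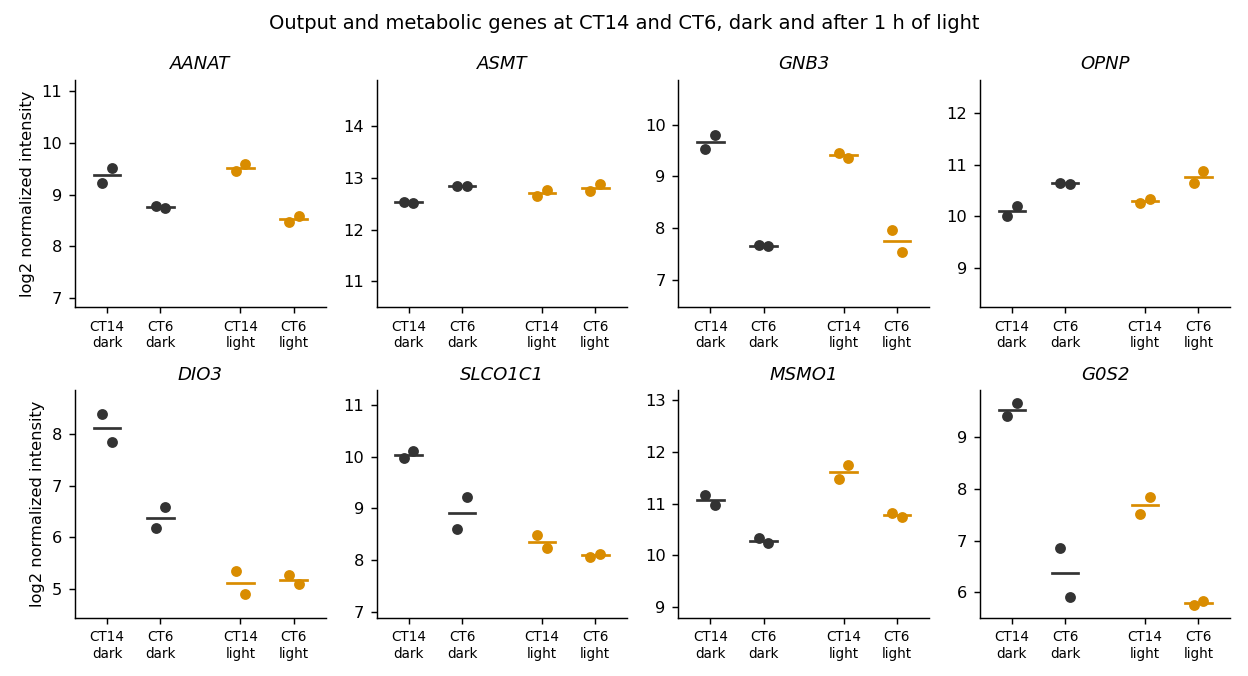
Log2 normalized intensity of 8 genes in dark arrays (black) and in arrays of light-pulsed glands (orange), CT14 left of CT6 in each pair, with a point per array and a bar at the mean of 2 arrays. Every panel spans the same number of log2 units. AANAT, GNB3, MSMO1 and G0S2 are higher at CT14 in both pairs, while DIO3 and SLCO1C1 are higher at CT14 in the dark pair and differ less in the light pair.

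Of 37 cyclic nucleotide signalling genes 3 fell and none rose (8.11%), where 4.38% of all genes passed. The falls were of PDE10A, a phosphodiesterase, by 0.85 ± 0.11 (adjusted p = 0.00133), ADCY8, an adenylyl cyclase, by 0.63 ± 0.15 and ADRA2C, an adrenergic receptor, by 0.62 ± 0.16. PDE10A read 6.51 and 6.45 at CT14, against 7.31 and 7.34 at CT6. Further probe sets of PDE10A gave -0.93, -0.59 and -0.27, and none passed. ADCY8 lost its call in 9 of 14 alternatives (-0.72 to -0.53) and ADRA2C in 10 (-0.89 to -0.36), each without at least 3 of the 4 arrays. Immediate early genes, which answer stimuli quickly, gave 3 increases and 1 decrease among 26 tested (15.4%, median 0.18, 20 lying higher). Of all 10406 genes tested 5670 lay higher. NPTX2, a secreted synaptic protein gene, rose by 1.28 ± 0.25, BDNF, a neurotrophin, by 1.00 ± 0.20 and TIPARP by 0.57 ± 0.10, while DUSP1, a phosphatase of MAP kinases, fell by 0.49 ± 0.11. All 4 lost their calls without the first CT14 array (1.23, 0.96, 0.48 and -0.39), and NPTX2 (0.83), BDNF (1.10) and DUSP1 (-0.37) also without the first CT6 array. BDNF lost it without the second CT6 array too (0.90).

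Among 13 glucocorticoid targets the metallothionein genes MT3 and MT4 rose, by 0.91 ± 0.15 and 0.87 ± 0.19, and PER2, NFKBIA and DUSP1 fell (38.5% called). The MT4 call was lost with any 1 of the 4 arrays left out, from 0.80 to 0.94, and that of NFKBIA without the first CT14 array (-0.34) or the first CT6 array (-0.37), while MT3 kept its call in 13 of 14 alternatives. CPLX4, a complexin of ribbon synapses, read 8.43 and 8.52 at CT14, against 9.44 and 9.29 at CT6, and fell by 0.89 ± 0.076 (adjusted p = 4.13e-05), with 1 other decrease (STX1A) and 1 increase (SYP) among 18 tested genes of synaptic release. The STX1A and SYP calls were each lost without at least 3 of the 4 arrays, with values over all alternatives from -0.59 to -0.34 and from 0.38 to 0.58. CALB2, a calcium-binding protein gene, fell by 0.94 ± 0.17, the calcium pump ATP2B4 by 0.57 ± 0.089 and the channel subunit CACNA2D1 by 0.45 ± 0.10, 3 of 21 calcium genes tested. Further probe sets of ATP2B4 gave -0.49, -0.040 and -0.0072, and none passed. Those of CACNA2D1 gave -0.60 and -0.58, which passed, and -0.49, which did not. The CACNA2D1 call was lost without either CT14 array (-0.42 and -0.48) or the first CT6 array (-0.36). Of 27 potassium channel genes 1 fell (3.7%, under the 4.38% of all genes), KCNJ8, by 0.71 ± 0.15. The calls of CALB2 and KCNJ8 were lost without the first CT14 array (-0.61 and -0.54) or the first CT6 array (-0.81 and -0.62).

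Housekeeping machinery gave almost none. Among 61 tested genes of the cytosolic ribosome and 46 of oxidative phosphorylation none passed in the limma fit, although without adjustment p was under 0.05 for 4 higher and 1 lower ribosomal gene and for 9 higher oxidative phosphorylation genes. Their medians were 0.044 and 0.094. Of all 23063 probe sets tested, 3933 had p under 0.05 without adjustment. That background counts every probe set, while the list counts take 1 probe set per gene. Over all genes 4.38% passed, against 3.23% of 31 proteasome genes and 2.94% of 34 genes of endoplasmic reticulum chaperones. Those calls were PSMC2, which rose by 0.34 ± 0.073, and DNAJB9, which rose by 0.49 ± 0.10. Both calls were lost without at least 3 of the 4 arrays, with values over all alternatives from 0.31 to 0.43 and from 0.35 to 0.63.

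Markers of other cells in the gland were read beside these changes. Of 17 tested fibroblast and meningeal markers 4 fell at CT14 and none rose (23.5%, median -0.10), with 12 lying lower and 5 higher. Of all 10406 genes tested 5670 lay higher. FN1, the gene of fibronectin, read 10.68 and 10.94 at CT14, against 12.07 and 11.84 at CT6, and fell by 1.15 ± 0.12 (adjusted p = 2.33e-04). The collagen gene COL1A1 fell by 0.86 ± 0.097 (adjusted p = 3.43e-04), COL1A2 by 0.52 ± 0.079 and PDGFRA by 0.62 ± 0.12. The PDGFRA call was lost without the first CT14 array (-0.53) and without either CT6 array (-0.60 and -0.64). The summed normalized intensity of the 17 markers was 20780.4 and 19929 at CT14, against 22582 and 22294 at CT6, so it was lower in both CT14 arrays. That sum weights members by intensity and includes FN1, so it is not independent of the FN1 call. Among the other members COL3A1, DCN and LUM gave -0.099, -0.032 and -0.12, and none of them passed. Whether fewer such cells in the CT14 pools had a part in the decreases was not tested. Of 4 further probe sets of COL1A2, none of which passed, 1 gave -0.29 and 3 gave 0.39, 1.32 and 0.045.

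Other cell types gave few calls. The tested markers of erythrocytes (6), lymphocytes (10), choroid plexus and ependyma (11) and skeletal muscle (4) gave no calls in the limma fit. Without adjustment p was under 0.05 for 3 higher and 3 lower choroid plexus genes and for none of the other 3 lists. As background for this count and the neuronal one below, 3933 of all 23063 probe sets tested had such a p. That background counts probe sets and not genes. Lymphocyte markers had a median of -0.49, with 9 lying lower, and a sum of 275 and 1059.8 at CT14, against 806 and 676 at CT6. Macrophage markers gave 1 call of 11 (LY86 higher), endothelial and mural markers 1 of 15 (ABCC9 lower), neuronal markers 1 of 11 (CHGA higher) and glial markers 2 of 13 (OLIG2 higher, SOX10 lower), and each of those 5 calls was lost without at least 3 of the 4 arrays. Over all alternatives LY86 gave 0.38 to 0.72, ABCC9 -0.84 to -0.71, CHGA 0.37 to 0.61, OLIG2 0.52 to 0.70 and SOX10 -1.01 to -0.38. The neuronal list had a median of -0.31 with 7 of 11 lying lower, and without adjustment p was under 0.05 for 5 lower genes (STMN2, SNAP25, NEFM, DCX and TUBB3, between -0.51 and -0.31) and for 2 higher ones (CHGA and ELAVL4), so CHGA ran against most of its list. The neuronal sum was 7308 and 8271 at CT14, against 7742 and 7060.3 at CT6, with overlap. Over all alternatives the neuronal median ran from -0.34 to -0.10. The lymphocyte median ran from -1.24 to 0.39, so its sign was not stable. The macrophage and microglia list had a median of -0.092, the glial list of -0.076 and the endothelial and mural list of 0.100. The macrophage sum was 4084 and 5142 at CT14, against 5679 and 5407 at CT6, and its part in the results was not tested. The sum of the 9 pineal markers was 17848 and 18372 at CT14, against 20258 and 20038 at CT6, lower in both CT14 arrays. OPNP, RBP3 and ASMT were lower and AANAT higher among its members. The sum weights members by intensity and includes ASMT, whose call depended on the scaling.

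**Figure D4:**
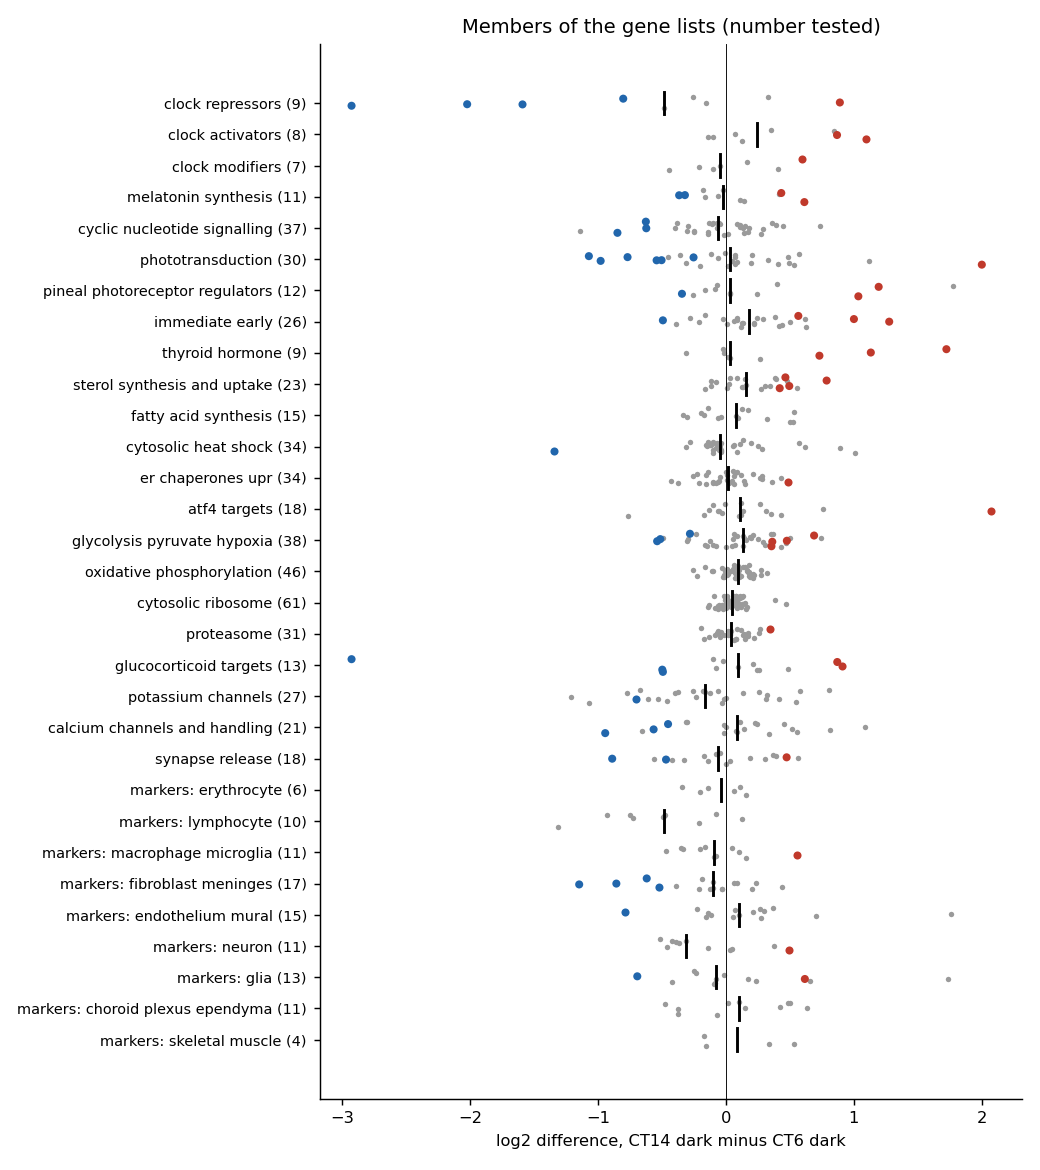
Log2 difference (CT14 dark minus CT6 dark) of every tested member of the gene lists apart from the pineal markers, with the number tested in brackets. Red points passed and were higher at CT14, blue points passed and were lower, grey points did not pass, and the black bar is the list median. Clock repressors have the largest share of calls among the lists drawn (55.6%), while ribosome and oxidative phosphorylation genes lie close to 0.

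The light-pulsed glands offer the same time contrast in other arrays, since CT14 light minus CT6 light shares no array with the dark comparison. Both contrasts use 1 estimate of spread per probe set. After light 160 probe sets passed (0.694%), 89 higher (0.386%) and 71 lower (0.308%) at CT14. Of the 802 probe sets called in the dark, 596 had the same direction after light, which is 74.3%, against 53.9% of those not called in the dark. Of the 802, 105 passed after light in the same direction (13.1%) and 1 in the opposite one. In the same direction 0.637% of all probe sets passed, which include the 105, and 0.189% of those not called in the dark. A probe set with a low spread estimate passes more easily in both contrasts, so these shares are not independent. The shared calls are 105 of 802 of the dark list (55 lower, 50 higher) and 105 of 160 of the light list. Across the 802 the 2 differences correlated with r = 0.634, and across all 23063 with r = 0.157, both across probe sets that are not independent. Of the 802, 748 differed less after light than in the dark, but they were chosen for their size in the dark.

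Clock, melatonin and photoreceptor genes were among those called in both pairs. PER2 read 5.48 and 5.29 in CT14 light arrays, against 7.12 and 7.33 in CT6 light arrays, a difference of -1.85 ± 0.25 (adjusted p = 0.00245). BHLHE41, ARNTL2 and NFIL3 gave -0.84 ± 0.098, 1.04 ± 0.10 and 0.83 ± 0.11, all past the threshold. AANAT read 9.45 and 9.58 at CT14 after light, against 8.46 and 8.58 at CT6 after light, a rise of 1.00 ± 0.10 (adjusted p = 3.09e-04), and DDC, which missed the threshold in the dark, rose by 0.89 ± 0.12 (adjusted p = 0.00223). GNB3 rose by 1.66 ± 0.14, SH3GLB2 by 1.49 ± 0.11, SLC6A9 by 1.79 ± 0.27 and G0S2 by 1.89 ± 0.24, and CRYAB, CALB2, FN1, RPE65 and OPNP were lower, by between 0.45 and 1.44 on the log2 scale. In the sterol list 7 of 23 genes were higher after light and none lower, where 0.903% of all genes passed.

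Other time differences of the dark gland were not called after light. DIO3 read 5.34 and 4.91 at CT14 after light, against 5.27 and 5.09 at CT6 after light, a difference of -0.056 ± 0.28 (adjusted p = 0.985). SLCO1C1, CHAC1, BHLHE40, BDNF and NPTX2 gave 0.26 ± 0.16, 0.59 ± 0.29, -0.068 ± 0.17, 0.27 ± 0.20 and 0.28 ± 0.25. The test of the difference between dark and light, which is also the test of unequal light responses at the 2 times, did not pass for these 6 genes (adjusted p from 0.132 to 0.381), so a difference between dark and light was not shown for them. It passed for 27 probe sets in all (0.117%), 4 of them with the higher dark difference (0.0173%) and 23 with the lower (0.0997%).

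**Figure D5:**
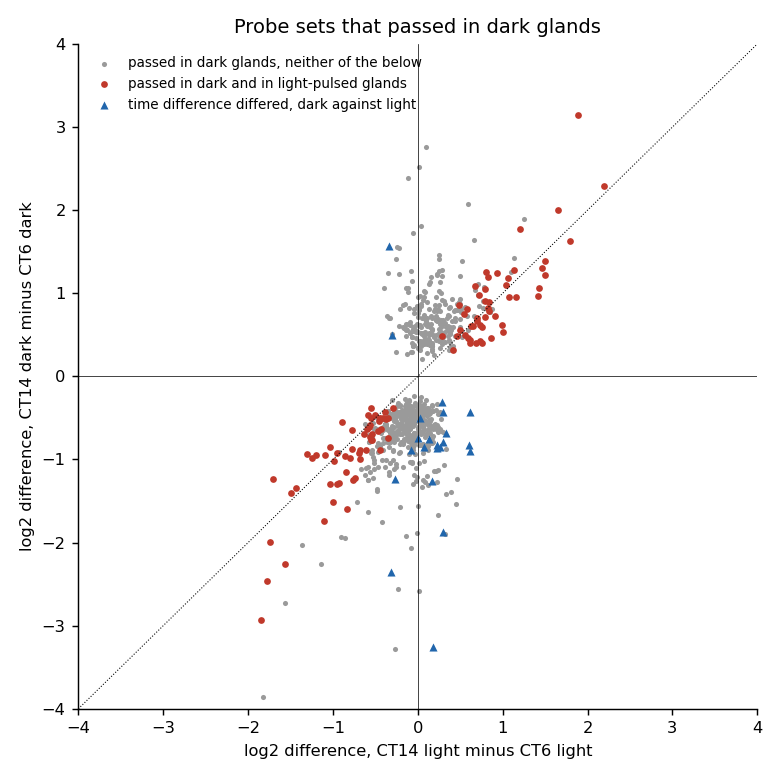
Each point is 1 of the 802 probe sets called in dark glands, with its log2 difference in dark glands (CT14 minus CT6) on the y axis and in light-pulsed glands on the x axis, 2 arrays per group. Red points also passed after light, blue triangles are those of the 27 probe sets with a called difference between dark and light that were also called in the dark (22), and the dotted line marks equal values. Most points lie nearer to 0 on the x axis than on the y axis.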

How the data were processed

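The authors deposited 1 linear intensity per probe set and array. How probes were summarised and scaled is not given in the labels. Per the labels' protocols, each array carried cRNA from total RNA pooled from 6 glands, and the design text gives 2 biological samples per condition. The depth of an array is not a count, so precision is limited by 2 arrays per group.

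The deposited intensities were taken to log2, quantile normalized over the 12 arrays and set to a floor of 1 on the linear scale, and 96 control probe sets were left out. Probe sets above the 40th percentile of mean log2 value (23063 of 38439) were fitted in R 4.3.3 with limma 3.58.1 as 6 group means, with a variance trend in eBayes (6 residual degrees of freedom, prior 7.29). Adjusted p-values are Benjamini-Hochberg over 23063 probe sets, with a threshold of 0.05. A gene was represented by its tested probe set with the highest mean. Probe sets were named from the platform annotation (27168 with 1 gene, 177 with several, 11094 with none), with symbols updated by gene ID. Members and gene lists were chosen with earlier results of these data known. The genes named are the 15 largest increases and 15 largest decreases past the threshold whose arrays do not overlap, every tested clock repressor, clock activator and melatonin gene, and called members of other lists (the 6 largest where a list had more). Alternatives changed the normalization, filter, added constant, variance model, arrays in the fit, actin covariate, replicate block and each array in turn. Promoter sequences were not used here.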

Additional observations from a re-analysis of the deposited data

Results flagged for a closer look

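For 5 named genes the time difference in the dark and that after light differed by the test of the difference itself in the limma fit, of 27 probe sets in all. SLC4A7 gave -1.26 ± 0.067 in the dark and 0.17 ± 0.067 after light, a difference of -1.43 (adjusted p = 2.14e-05), and a further probe set of it was also called, with -1.01. RASL11A gave -2.36 ± 0.23 in the dark and -0.31 ± 0.23 after light, a difference of -2.05 (adjusted p = 0.0309), but its CT14 dark values lie under the limit for low values. PDE10A gave -0.85 ± 0.11 and 0.27 ± 0.11, a difference of -1.11 (adjusted p = 0.0152). Further probe sets of PDE10A did not pass in the dark (-0.93, -0.59 and -0.27). COL1A1 gave -0.86 ± 0.097 and 0.23 ± 0.097, a difference of -1.08 (adjusted p = 0.00895), and CPLX4 gave -0.89 ± 0.076 and -0.078 ± 0.076, a difference of -0.81 (adjusted p = 0.00945). For all 5 the decrease at CT14 was the dark one: after light the difference was smaller or had the opposite sign and did not pass. These genes were named for their calls in the dark, so a dark difference in each was fixed by that choice. Of the 27 probe sets, 5 were not called in the dark. Among them were BMP2 (-0.30 in the dark and 1.11 after light) and HSPA2 (-0.10 and 0.70).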

How the results depend on the processing

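Against 802 calls (308 higher, 494 lower), values as deposited gave 421 (111 and 310), no filter 476 (163 and 313), no variance trend 143 (43 and 100), the 4 arrays alone 359 (123 and 236) and the actin covariate 512 (184 and 328), while median-centred arrays gave 915 (578 and 337). Leaving out 1 array gave 261 to 661 calls, 95 to 256 higher and 149 to 469 lower, with 261 without the first CT6 array and 343 without the first CT14 array. The 60th percentile filter (1024), 16 added before log2 (861), the 6 dark arrays (601) and the replicate block (773) stayed within 1.5 times the count. The labels give same-numbered arrays a shared number and do not say what it marks. Deviations of these arrays from group means correlated between -0.0283 and 0.0284 over 15 pairs of groups. Those values were taken after normalization, so they cannot show whether such arrays shared a processing step. The block kept 81 of the 86 calls of named genes, which were kept in 25 (no variance trend) to 85 (16 added) cases under the other alternatives that tested all 86. None changed direction, which most of the alternatives could not alter. The share with the same direction after light was 65.9% to 81.8% over the 12 alternatives that hold light arrays, against 74.3%. The median difference of all probe sets was -0.079 with values as deposited and 0.036 with median centring, against 0.0032. Called named genes had 65 further tested probe sets, of which 60 had the direction of the call and 5 the opposite one. Only 22 of the 65 passed, all in the direction of the call. Other probe sets ran opposite to the call for POF1B (-0.15), DIO2 (-0.57) and COL1A2 (0.045, 1.32 and 0.39), none of which passed. The cause of these changes was not tested. With 2 arrays a group, a median SE of 0.20 limits what can be called, and probe sets near the log2 limit give uncertain sizes. The planned promoter description was not run.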
